A study of Mus musculus with 10 samples.

Results

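Alveolar type 1 cells are the thin, flat epithelial cells that line most of the gas exchange surface of the lung, and 7 genes known to mark them were followed here: Ager, Hopx, Pdpn, Rtkn2, Clic5, Cldn18 and Emp2. The genes were taken by symbol from a table of 24059 gene symbols, all 7 had a row, and all 7 were among the 2438 genes that passed the filter on low counts. Whole lung, flushed with PBS, came from female C57Bl/6 mice aged 14 weeks that had eaten 1 of 2 semipurified high-fat diets for 8 weeks. Menhaden fish oil made the FO diet rich in n-3 PUFAs. The CO diet was rich in saturated fat from coconut oil and also held olive oil, and both diets held corn oil and cholesterol. There were 5 mice on each diet, with 1 library per mouse and no chow-fed group among these 10 mice. All mice had undergone pulmonary function testing before the lungs were taken. The comparison asks whether expression of these genes differed between the diets. Because whole lung was sequenced, fewer alveolar type 1 cells and less RNA per cell cannot be told apart.

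The type 1 cell shares its basement membrane with the capillary endothelium, so its thinness sets the distance that oxygen and carbon dioxide cross. The cell is replaced from alveolar type 2 cells, the cuboidal cells that make surfactant, and it seals the airspace with tight junctions. The 7 genes cover a receptor (Ager), a nuclear regulator (Hopx), surface and membrane proteins (Pdpn, Emp2), a tight junction protein (Cldn18) and a protein of the cortical cytoskeleton (Clic5), along with Rtkn2, a marker of type 1 cells. Some are also made by other cells: Pdpn is also known from lymphatic endothelium and Cldn18 from type 2 cells and stomach.

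Library depth was uneven. Totals per mouse ran from 229766 to 1124963 counts, and Rn45s, the ribosomal RNA precursor, took 21.8% to 87.0% of them, so 45177 to 473254 counts were left for all other genes. Normalised counts are given as CPM on TMM-scaled library sizes, and 3 counts, taken as the floor of a mouse, corresponded to 2.29 to 19.9 CPM. CO mouse 4 stood apart, with the lowest Rn45s share (21.8%) and a TMM factor of 3.21 against 0.448 to 1.60 in the others, and FO mouse 2 and CO mouse 5 stood apart with 8.53% and 6.15% of their other counts on the nuclear RNA Malat1, against at most 1.05% elsewhere. Which library had which of the named kits (TruSeq v2 or riboZero) or sequencers is not given in the sources used here. All 848 symbols that RefSeq places on chromosome 15 were listed at 0 in every mouse, where 52.0% to 68.6% of the symbols on any other autosome had a count, so type 1 genes on that chromosome (Aqp5, Krt7, Mal2) gave no value.

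On GRCm38, the build that mm10 names, Ager lies on chromosome 17 from 34597460 to 34600937 and Clic5 on the same chromosome from 44134762 to 44280169. Hopx lies on chromosome 5 from 77086986 to 77115123, Pdpn on chromosome 4 from 143267409 to 143299564, and Rtkn2 on chromosome 10 from 67979566 to 68058429. Cldn18 lies on chromosome 9 from 99690796 to 99717267, and Emp2 on chromosome 16 from 10281749 to 10313968. All 7 are protein-coding. In GENCODE M21, antisense genes overlap exons of Hopx (Hopxos) and Rtkn2 (Gm16212), and another (Gm16004) overlaps Cldn18 outside its exons. The strand setting of the counting is not given in the sources used here, so reads of Hopx or Rtkn2 and of their antisense partners cannot be told apart.

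Hopx and Cldn18 each have 2 start sites in the RefSeq promoter table, and reads summed per gene do not separate their transcripts. With Emp2 they were the 3 highest of the 7 in mean CPM, and their promoters are shown because Hopx and Cldn18 also had the widest ranges over the 10 mice (5.76-fold and 9.72-fold). Each run covers 250 bases before and 50 after a start on the minus strand of GRCm38.p6, and capitals mark CAAGTG or its reverse complement, the core letters bound by NKX-type homeodomain factors, or GGAATG or its reverse complement, the core of TEAD factors.
Emp2, chr16:10313919-10314218: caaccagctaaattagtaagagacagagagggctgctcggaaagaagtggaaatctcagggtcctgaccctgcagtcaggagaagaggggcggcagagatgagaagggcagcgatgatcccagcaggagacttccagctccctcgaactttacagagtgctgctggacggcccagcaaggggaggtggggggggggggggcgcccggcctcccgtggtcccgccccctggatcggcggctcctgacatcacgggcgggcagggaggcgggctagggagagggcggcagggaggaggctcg
Hopx upstream start, chr5:77115074-77115373: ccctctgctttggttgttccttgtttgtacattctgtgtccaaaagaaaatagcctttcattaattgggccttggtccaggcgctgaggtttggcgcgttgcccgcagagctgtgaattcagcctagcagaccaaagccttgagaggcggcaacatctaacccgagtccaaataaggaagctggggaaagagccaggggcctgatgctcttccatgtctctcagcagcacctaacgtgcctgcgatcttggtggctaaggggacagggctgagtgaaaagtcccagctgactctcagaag
Hopx downstream start, chr5:77095218-77095517: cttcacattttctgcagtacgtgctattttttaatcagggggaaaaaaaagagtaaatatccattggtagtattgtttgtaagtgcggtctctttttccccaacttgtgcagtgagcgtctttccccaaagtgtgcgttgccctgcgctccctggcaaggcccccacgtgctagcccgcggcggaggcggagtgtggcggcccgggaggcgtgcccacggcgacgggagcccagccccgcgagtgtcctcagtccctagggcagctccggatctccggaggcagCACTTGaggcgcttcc
Cldn18 upstream start, chr9:99717218-99717517: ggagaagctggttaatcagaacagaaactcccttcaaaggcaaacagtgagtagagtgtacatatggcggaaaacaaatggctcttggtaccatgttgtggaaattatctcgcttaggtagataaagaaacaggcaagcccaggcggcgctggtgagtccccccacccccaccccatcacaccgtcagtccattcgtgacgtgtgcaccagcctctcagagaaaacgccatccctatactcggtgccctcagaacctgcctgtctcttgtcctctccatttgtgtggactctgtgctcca
Cldn18 downstream start, chr9:99710014-99710313: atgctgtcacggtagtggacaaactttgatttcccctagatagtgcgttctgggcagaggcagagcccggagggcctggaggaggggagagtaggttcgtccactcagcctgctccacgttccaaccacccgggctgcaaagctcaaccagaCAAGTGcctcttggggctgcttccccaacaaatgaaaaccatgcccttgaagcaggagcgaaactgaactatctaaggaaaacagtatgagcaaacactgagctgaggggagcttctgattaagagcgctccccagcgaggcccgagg
The NKX letters occurred in the downstream promoter of Hopx, 35 bases into the transcript, and in the downstream promoter of Cldn18, 98 bases before the start. They were in 2 of the 8 promoters listed for 6 of the genes (Rtkn2 had no entry), and in 13.6% of all 32851 promoters searched on both strands. The TEAD letters were in 0 of these 8 and in 14.7% of all. A match describes only the letters of its window.

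No gene of the 7 passed the threshold of the comparison, an unadjusted p-value under 0.05 in edgeR's quasi-likelihood test. Of all genes tested, 2.91% did (71 of 2438), 41 higher and 30 lower with FO. Fitted log2 fold changes (FO against CO) were below 0 for 6 of the 7 genes and above 0 for Clic5, with a median of -0.28 against 0.00 over all genes tested. The edgeR adjusted p-value, over all genes, was 0.998 for each of the 7. For each gene the ranges of the 2 diets overlapped, where 0.41% of all genes tested (10) had diet groups that did not. CO mouse 4 was singled out after its values were seen. In the fit without it, 4 of the 7 genes were above 0, the median was 0.12, and again 0 were called. With limma-voom 3 of the 7 were above 0, and with library size alone 0 were.

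**Figure D1:**
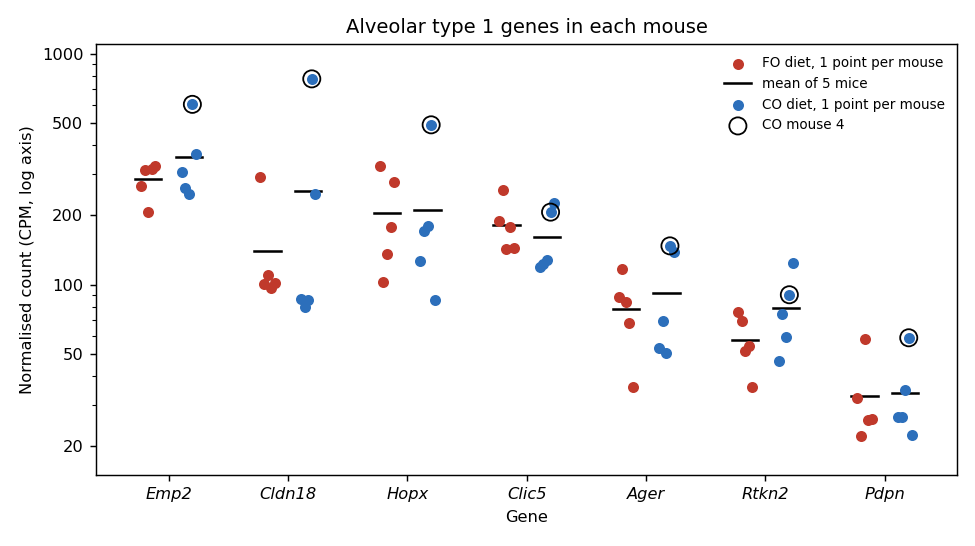
Normalised count (CPM, log axis) of the 7 alveolar type 1 genes in each mouse, with FO mice in red, CO mice in blue, a bar at the mean of 5 mice and a ring around CO mouse 4. The ringed mouse was the highest of all 10 for Emp2, Cldn18, Hopx, Ager and Pdpn, and the colours overlap for every gene.

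Ager encodes RAGE, a receptor of the immunoglobulin family that is abundant on the basolateral face of type 1 cells. It had 88.6, 116.2, 83.9, 67.9 and 36.0 CPM in FO mice 1 to 5 and 53.2, 69.2, 50.4, 147.0 and 137.8 CPM in CO mice 1 to 5. CO mice 4 and 5 were above every FO mouse, CO mice 1 to 3 were below FO mice 1 to 3, and FO mouse 5 was the lowest of all. The means were 78.5 ± 29.4 CPM with FO and 91.5 ± 47.1 with CO (SD, n = 5 each). A log2 fold change of -0.27 (SE 0.34, 95% interval -0.98 to 0.44, edgeR p = 0.430, exact permutation p = 0.706) was smaller than the spread between mice.

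Hopx encodes a small homeodomain protein that does not bind DNA and acts through other factors. Its level was 326.8, 102.4, 135.5, 176.7 and 278.3 CPM in FO mice 1 to 5 and 126.3, 170.4, 179.6, 491.3 and 85.3 CPM in CO mice 1 to 5. CO mice held both the highest and the lowest value, a range of 5.76-fold, and the FO mice lay inside it. For FO against CO the log2 fold change was -0.08 (SE 0.40, 95% interval -0.92 to 0.77, edgeR p = 0.847, exact permutation p = 0.865). The mean of log2 CPM was 7.57 with FO and 7.48 with CO, so the sign differed between the fitted counts and the logged values. Without CO mouse 4 the fitted value was 0.58.

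Pdpn encodes podoplanin (T1 alpha), a mucin-like membrane glycoprotein of the apical surface. It was the least counted of the 7, with 193 counts in all and 4 to 56 per mouse. Its values were 32.2, 22.2, 58.1, 25.9 and 26.2 CPM in FO mice 1 to 5 and 26.6, 26.6, 35.0, 58.8 and 22.3 CPM in CO mice 1 to 5. Each diet held 1 mouse near 58 CPM (FO mouse 3, with 9 counts, and CO mouse 4, with 56) and 4 mice at or below 35.0 CPM. Its log2 fold change was -0.28 (SE 0.34, 95% interval -1.002 to 0.43, edgeR p = 0.417, exact permutation p = 0.810), and 0.12 without CO mouse 4. Among markers of lymphatic endothelium, which also makes podoplanin, 1 of 5, Lyve1, passed the filter, with 58.5 ± 20.1 CPM in FO mice and 39.4 ± 6.89 in CO mice (SD, n = 5 each) and a log2 fold change of 0.62 (edgeR p = 0.045, adjusted p = 0.998, exact permutation p = 0.056). Lyve1 was called in 3 of the 10 fits that left out 1 mouse and was at 0.36 without FO mouse 2. Prox1 and Flt4, which define that endothelium, had 11 and 12 counts over all mice, Mmrn1 had 12 and Ccl21a was listed at 0. The 5 markers summed to 42.6 to 96.3 CPM in FO mice and 35.7 to 53.3 CPM in CO mice. The part of lymphatic cells in the Pdpn values was not tested.

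Rtkn2 is a gene used to mark type 1 cells. FO mice 1 to 5 had 75.9, 69.5, 51.6, 54.4 and 36.0 CPM and CO mice 1 to 5 had 46.5, 74.6, 59.1, 90.3 and 123.4 CPM. The top 2 values belonged to CO mice 5 and 4, and the lowest to FO mouse 5. The diets differed by -0.47 on the log2 scale (SE 0.28, 95% interval -1.06 to 0.12, edgeR p = 0.114), and 1 of 5 FO mice lay above the CO median (two-sided exact permutation test of log2 CPM, p = 0.214). Without CO mouse 1, the shallowest library, the log2 fold change was -0.59 and passed the threshold (edgeR adjusted p = 0.999). In that fit 104 of 3202 genes were called.

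Clic5 encodes an intracellular chloride channel family protein that associates with the cortical actin layer. It was the only one of the 7 with a fitted value above 0. FO mice 1 to 5 had 187.6, 257.5, 141.9, 176.7 and 144.1 CPM and CO mice 1 to 5 had 119.6, 122.5, 127.1, 205.8 and 225.7 CPM. All 5 FO mice lay above CO mice 1 to 3, and CO mice 4 and 5 lay above 4 of the 5 FO mice. On the log2 scale the fold change was 0.17 (SE 0.25, 95% interval -0.36 to 0.69, edgeR p = 0.515, exact permutation p = 0.452), and -0.52 with library size alone as the scaling, where the median of all genes was -0.55. It was the least variable of the 7, with a within-diet SD of 0.39 on the log2 scale and a 2.15-fold range over the 10 mice.

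Cldn18 encodes a claudin of the alveolar tight junction. It varied most of the 7, with a within-diet SD on the log2 scale above that of 97.3% of the genes tested, for which the median was 0.47. FO mice 1 to 5 had 291.1, 100.9, 109.7, 96.4 and 101.5 CPM and CO mice 1 to 5 had 86.4, 79.9, 85.4, 776.8 and 245.4 CPM. In each diet most mice lay close together, with FO mouse 1 and CO mice 4 and 5 far above them, and CO mouse 4 alone supplied 74.4% of the counts of its group (740 of 994), where it supplied 36.3% of all CO counts outside Rn45s. All 5 FO mice were above the CO median, yet the fitted log2 fold change was -0.91 (SE 0.53, 95% interval -2.02 to 0.20, edgeR p = 0.102, exact permutation p = 0.722), and it was 0.14 without CO mouse 4. Over all 14161 genes with any count, of which 587 were called, Cldn18 passed the threshold at -0.93 with an edgeR adjusted p of 0.780. It also passed without FO mouse 1 (-1.40, with 54 of 2216 genes called) or CO mouse 1 (-1.12, 104 of 3202). The same held without CO mouse 2 (-1.13, 77 of 3235) or CO mouse 3 (-1.13, 80 of 2266). With library size alone Cldn18 was at -2.15 and past the threshold, where 36 of 2438 genes were called. Limma-voom, which gives less weight to libraries that vary more, put it at 0.080.

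Emp2 encodes a tetraspan membrane protein linked to caveolae. It had the most counts of the 7, 32 to 574 per mouse. Its level was 267.0, 314.1, 206.5, 317.5 and 327.4 CPM in FO mice 1 to 5 and 305.7, 261.0, 245.3, 602.6 and 366.2 CPM in CO mice 1 to 5. Apart from CO mouse 4 at 602.6 CPM, all mice lay between 206.5 and 366.2 CPM. The fitted value of -0.32 (log2, SE 0.25, 95% interval -0.85 to 0.21, edgeR p = 0.219, exact permutation p = 0.429) became -0.02 without that mouse.

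**Figure D2:**
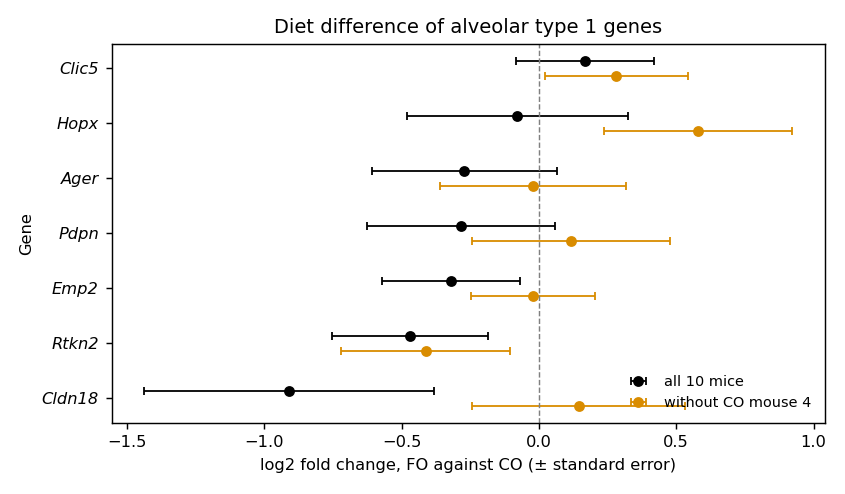
Fitted log2 fold change of each gene, FO against CO, with its standard error, for all 10 mice (black) and for the 9 mice without CO mouse 4 (orange). Hopx, Pdpn and Cldn18 change sign when that mouse is left out, and no value in the plot was called.

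Compared with the mean of the other 4 CO mice, CO mouse 4 had 6.25 times as much Cldn18, 3.50 times as much Hopx, 2.13 times as much Pdpn, 2.05 times as much Emp2 and 1.89 times as much Ager, each above every other CO mouse. Clic5 (1.38 times) and Rtkn2 (1.19 times) were not the highest there. The median ratio over all genes tested was 0.97. CO mouse 4 was the highest of the 10 mice for 5 of the 7 genes and for 10.8% of all genes tested. This mouse was singled out after its values were seen. Its library also held 280686 counts outside Rn45s, the second most of all, and its type 2 genes summed to the lowest level of any mouse. The part of these features in its type 1 levels was not tested.

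Summed over the 7 genes, the level was 1269, 983, 787, 915 and 950 CPM in FO mice 1 to 5 and 764, 804, 782, 2372 and 1206 CPM in CO mice 1 to 5. The means were 980.8 ± 177.5 CPM with FO and 1186 ± 688 with CO (SD, n = 5 each), and 889.2 ± 212.0 over the 4 CO mice other than mouse 4. As a share of the counts outside Rn45s, the 7 genes made up 0.805% in CO mouse 4 (95% exact Clopper-Pearson interval 0.772% to 0.839%, counting error only) and 0.255% to 0.440% in the other 9 mice. Its interval lay above those of all other mice.

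**Figure D3:**
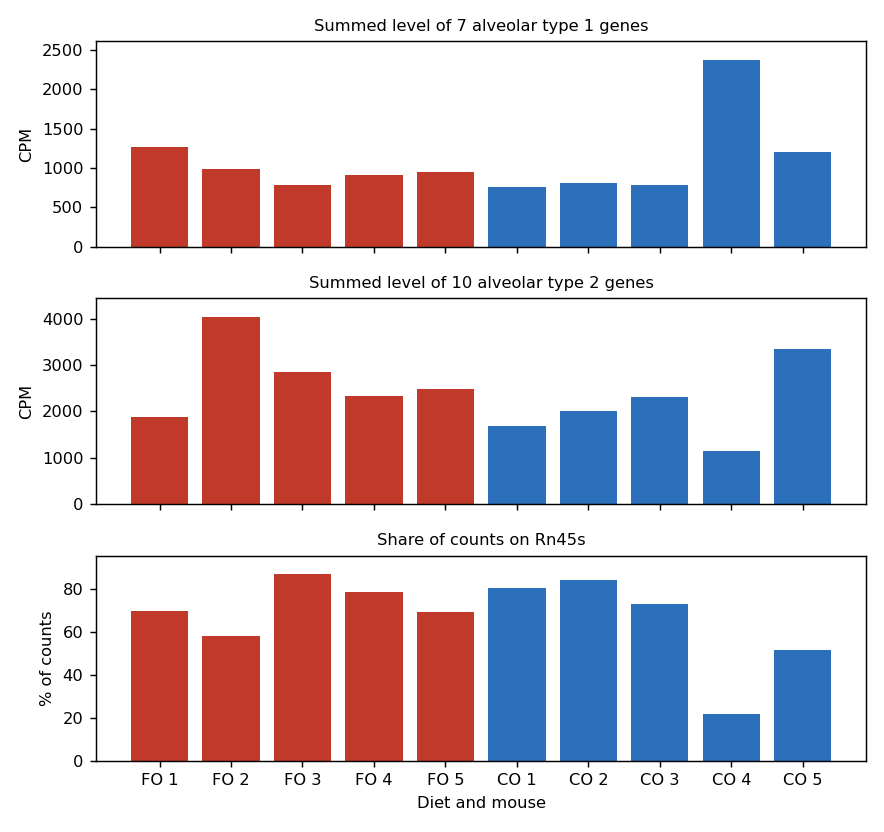
Summed level of the 7 alveolar type 1 genes (top, CPM), summed level of 10 alveolar type 2 genes (middle, CPM) and share of all counts on Rn45s (bottom, percent) in each mouse, with FO in red and CO in blue. CO mouse 4 is the highest bar at the top (2372 CPM) and the lowest in the other panels (1143 CPM and 21.8%).

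Type 2 genes, which mark the surfactant-producing neighbours, are given beside these values because Cldn18 is also made there. The 10 type 2 genes summed to 1884 to 4038 CPM in FO mice and 1143 to 3339 CPM in CO mice, with the lowest value in CO mouse 4. All 9 that passed the filter had fitted values above 0 and 0 were called (median 0.36). The count above 0 was 8 of 9 with RLE size factors and 7 of 9 with limma-voom. It was 6 of 9 without CO mouse 4 and 5 of 9 without FO mouse 2. With library size alone, where the median of all genes was -0.55, 2 of the 9 were above 0 (median -0.03). Without CO mouse 5, 2 of the 9 were called, both higher with FO, where 33 of the 2075 genes tested in that fit were called higher. Surfactant protein C (Sftpc) had 1157 ± 312 CPM with FO and 842 ± 373 with CO (SD, n = 5 each), and the log2 fold change was 0.45 (SE 0.29, edgeR p = 0.129, exact permutation p = 0.127). Sftpa1, another surfactant protein, was at 0.32 (SE 0.30).

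Levels were compared between genes per kilobase of exon and per 1000000 counts outside Rn45s, using the union of GENCODE M21 exons. On this scale Hopx had the highest median level over the 10 mice, 388.2, followed by Ager (119.9), Emp2 (112.5), Cldn18 (75.2), Clic5 (62.0), Pdpn (49.2) and Rtkn2 (35.2). Hopx lay above Ager in 9 of 10 mice (two-sided exact permutation test of paired log2 ratios, p = 0.0039, adjusted p = 0.023 over 6 neighbouring pairs), and Cldn18 above Clic5 in 9 of 10 (exact p = 0.0078, adjusted p = 0.023). Ager and Emp2, Emp2 and Cldn18, Clic5 and Pdpn, and Pdpn and Rtkn2 did not differ beyond their spread over the mice (exact adjusted p between 0.070 and 0.906). The order and its neighbouring pairs were taken from these same levels, so the p-values do not test the ranking. By the mean over the 10 mice, Cldn18 (146.6) lay above Ager (128.4) and Emp2 (121.7). Union exon length counts every annotated isoform, so a gene read mainly from a short isoform is placed too low.

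Whether the genes varied together was measured over all 21 pairs with correlations of log2 CPM across the 10 mice, which share uneven depth. Pearson's r was above 0 in 16 pairs and had a median of 0.48. After adjustment over the 21 pairs, 1 remained under 0.05: Ager and Rtkn2 (r = 0.85, permutation p = 0.0020, adjusted p = 0.042). Its Spearman's rho was 0.82 (permutation p = 0.0063, adjusted p = 0.133). Without FO mouse 5 and CO mouse 4, the mice farthest from the Ager median, r was 0.75 and no longer under 0.05 after adjustment (adjusted permutation p = 0.140), and with the diet means subtracted r was 0.89. Without the Malat1-rich FO mouse 2 and CO mouse 5 it was 0.84 (adjusted permutation p = 0.059), and the pair then under 0.05 was Clic5 and Cldn18 (r = 0.83, adjusted permutation p = 0.038). Next came Ager and Clic5 with r = 0.78 (rho 0.72, permutation p = 0.0089 for r and 0.023 for rho, adjusted 0.094 and 0.230). For this pair r was 0.86 without FO mouse 5 and CO mouse 4, and 0.68 without FO mouse 2 and CO mouse 5. Hopx was near 0 with Ager, Rtkn2 and Clic5, with r of -0.06, -0.10 and -0.05. In those pairs FO mouse 2 and CO mouse 5, the libraries rich in Malat1, were low in Hopx and high in Clic5, and without them r was 0.49, 0.49 and 0.79 (adjusted permutation p = 0.309, 0.309 and 0.090).

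**Figure D4:**
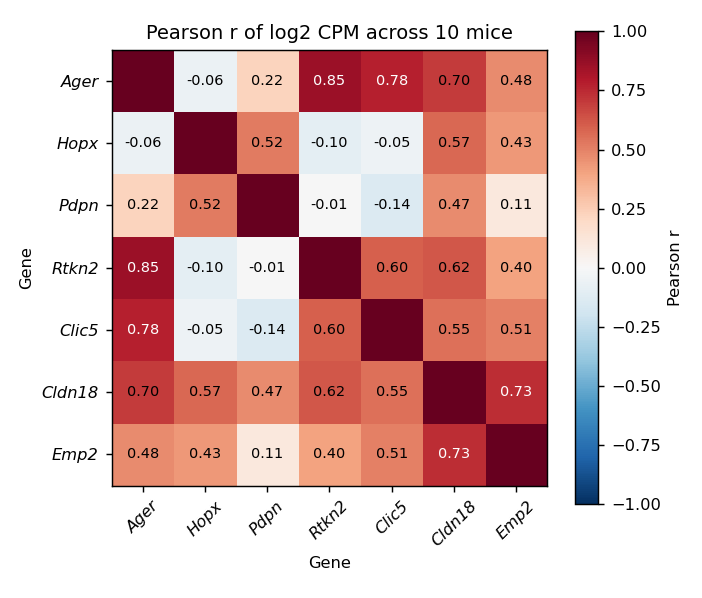
Pearson's r of log2 CPM across 10 mice for each pair of the 7 genes, on a colour scale from -1 (blue) to 1 (red). The reddest cells are Ager with Rtkn2 (0.85) and with Clic5 (0.78) and Cldn18 with Emp2 (0.73), while Hopx and Pdpn lie between -0.14 and -0.01 with Clic5 and Rtkn2.

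For a summary profile, log2 CPM of each of the 7 genes was standardised and averaged in each mouse, which placed CO mouse 4 highest at 1.63 and CO mouse 1 lowest at -0.68. The next highest was CO mouse 5 at 0.47, and the part of CO mouse 4 in the r values below was not tested. Cldn18 followed the mean of the other 6 most closely (r = 0.94 over 10 mice) and Pdpn least (r = 0.26). The genes outside the 7 whose levels were most like this profile were Wnk1 (r = 0.96), a kinase that regulates ion transport, Phactr1 (0.96), a regulator of actin and protein phosphatase 1, Akap2 (0.94), an anchor for protein kinase A, Cdc42bpg (0.89), a kinase bound by Cdc42, and Nfe2l1 (0.88), a transcription factor of proteasome genes. These are the highest values of r among the genes tested and are given as a description only. None of the 5 was called between the diets, with fitted log2 fold changes from -0.43 to -0.25.

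A further list of 30 genes known from type 1 cells was read in the same fit. Of these, 3 were listed at 0 (those on chromosome 15), 15 had counts but did not pass the filter, and 12 were tested. Fitted values were below 0 for 11 of the 12, with a median of -0.20, and above 0 for Timp3. Of the 12, 1 was called, Akap5, lower with FO, where 2.91% of all genes tested were called. Without CO mouse 4, 7 of 12 were below 0, the median was -0.07 and 0 were called. The number below 0 was 17 of 27 with any count, 8 of 12 with limma-voom and 12 of 12 with library size alone.

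Akap5 anchors protein kinase A and calcineurin near the membrane, and it is among the genes that the study itself picked from these mice. It had 240.5, 188.0, 225.8, 228.5 and 196.5 CPM in FO mice 1 to 5 and 285.7, 218.4, 170.9, 771.6 and 606.4 CPM in CO mice 1 to 5. CO mice 4 and 5 were far above all others, and the other 3 CO mice surrounded the FO values. FO and CO differed by -0.96 on the log2 scale (SE 0.34, edgeR p = 0.011, adjusted p = 0.998, two-sided exact permutation p = 0.183). Without CO mouse 4 the value was -0.58 and was not called.

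The 3 other most highly counted genes of that list were Sec14l3, a lipid-binding protein, Limch1, a regulator of non-muscle myosin, and S100a6, a calcium-binding protein. Sec14l3 had 506.2 ± 100.1 CPM with FO and 659.9 ± 240.3 with CO, and its highest mice were CO mice 4 (1007 CPM) and 5 (818 CPM). Limch1 had 373.5 ± 116.5 CPM with FO and 383.3 ± 160.4 with CO, and S100a6 had 276.2 ± 83.8 and 307.2 ± 78.7 (SD, n = 5 each for all). Outside the rule for naming genes, the caveolin genes Cav1 and Cav2, which form the caveolae of type 1 cells and of endothelium, had log2 fold changes of -0.18 and -0.03 (SE 0.31 for each).

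**Figure D5:**
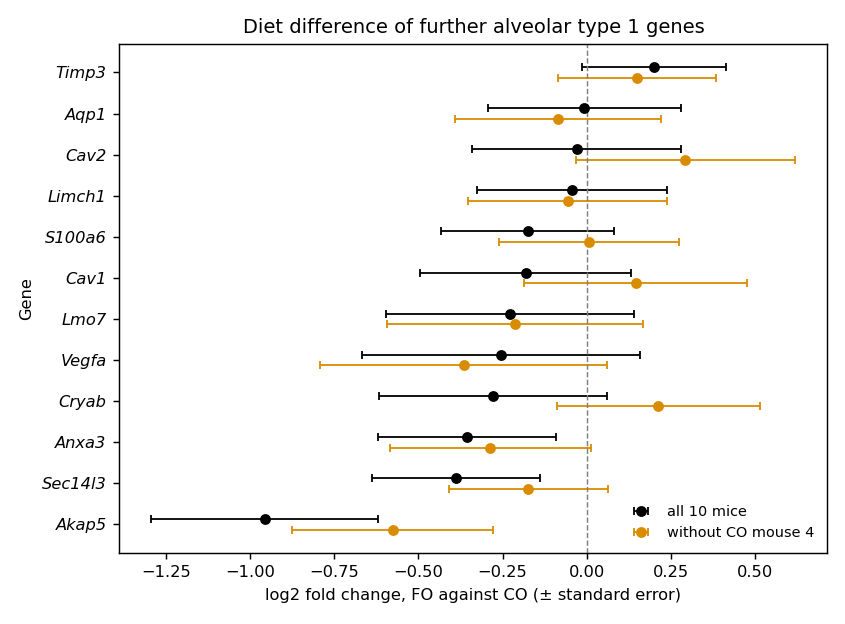
Fitted log2 fold change, FO against CO, with its standard error, for the 12 further type 1 genes that passed the filter, with all 10 mice (black) and without CO mouse 4 (orange). Akap5 is the farthest from 0 in both fits, at -0.96 and -0.58.

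Markers of other cells in the lung were read beside these values. For club cells, secretory cells of the airway, 4 of 5 genes had fitted values below 0 and 0 were called, with summed levels of 1437 to 2328 CPM in FO mice and 1150 to 2897 CPM in CO mice. Their highest genes, Scgb1a1 and Aldh1a1, were at -0.36 (SE 0.31) and 0.07 (SE 0.24). For capillary endothelium, 6 of 9 were tested, 3 in each direction, and 0 were called, and summed levels were 361 to 738 CPM with FO and 352 to 655 CPM with CO. The endothelial adhesion gene Pecam1 was at -0.26 (SE 0.23) and Tmem100 at 0.40 (SE 0.32). For fibroblasts and mesothelium, 5 of 8 were tested and 0 called, from 540 to 1058 CPM with FO and 516 to 1188 CPM with CO, and the highest, Inmt and the collagen gene Col1a2, were at -0.09 (SE 0.32) and 0.23 (SE 0.25). Ciliated, pan-epithelial and cardiac muscle lists had 1 tested gene each and 0 called. Tppp3 of cilia was at -0.62 (SE 0.30) and was called without FO mouse 1 (-0.74), CO mouse 2 (-0.72) or CO mouse 5 (-0.73) and with library size alone (-1.40). The cardiac myosin Myh6 was at 0.46 (SE 0.58). The 1 cardiac gene tested was at -0.40 without FO mouse 2 and at 1.26 without CO mouse 5. With any count, all 5 cardiac genes were above 0 and 2 were called, Tnnt2 (1.24, SE 0.45) and Tnni3 (1.39, SE 0.56), where 365 of 14161 genes were called higher. The default filter had removed both. Tnnt2 had 126 counts in all, 66 of them in 1 mouse (exact permutation p = 0.357). Tnni3 had 70 counts in all (exact permutation p = 0.024). Krt8 and Krt18, on chromosome 15, were among the pan-epithelial genes listed at 0, and Cdh1, the one tested, had a log2 fold change of 0.48 (SE 0.30) and was called with limma-voom (0.62). The part of other cell types in the type 1 values was not tested.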

How the data were processed

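For 10 mice, the authors deposited raw whole-number counts, 1 value per gene symbol and library. Per the study's methods and the submitters' processing notes, single-end reads were aligned to mm10 with STAR 2.4.0f1, handled with SAMtools 0.1.19 and counted with htseq-count. The annotation and strand setting are not given in the sources used here. Library kits with and without poly(A) selection can shift the balance between genes.

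Diets and mouse numbers came from the sample labels. The 7 genes and all lists were chosen with earlier results of these data known. Counts were tested in R 4.3.3 with edgeR 4.0.16 (TMM, default filter with a minimum count of 10 and total of 15, quasi-likelihood test), without a covariate. The call was an unadjusted p-value under 0.05, the study's threshold, with Benjamini-Hochberg adjustment over the 2438 genes tested. Log2 CPM used a prior count of 2. Standard errors are the fold change divided by the square root of F, and 95% intervals use the moderated degrees of freedom. Single genes were also tested with exact permutations (252 assignments), and correlations with 100000 permutations. P-values measure the spread between these mice.

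Alternatives were DESeq2 1.42.0, RLE factors, library size alone, 2 other filters, no Rn45s, limma-voom (limma 3.58.1) with quality weights, the replicate number as a block, and leaving out mice. The fits were tested on simulated data. Same-numbered mice are different animals. Genes were named by a rule: the 7, of the further type 1 list those called and the 4 highest in mean CPM, of the other lists the 2 highest and any called among the genes tested, and the 5 most similar profiles. Prox1, Flt4, Mmrn1, Tnnt2, Tnni3, Timp3, Cav1 and Cav2 were named outside it, with values known. Protein sequences were not used here. Airway, lipid and histology data were not analysed here.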

Additional observations from a re-analysis of the deposited data

Results flagged for a closer look

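There were 22 groups of 5 mice, formed by the 7 genes and 4 measures of the libraries within each diet. Of these, 4 held a mouse whose gap to the nearest other, divided by the group's range, was above 0.71. About 1.1 would pass by chance if the groups were independent and normally distributed. The groups share mice and the Malat1 shares were not logged, so 1.1 is only a rough guide. Cldn18 in FO mouse 1 was at 8.20 log2 CPM, far above the other FO mice. The share of the 7 genes among counts outside Rn45s was 0.805% in CO mouse 4, far above the other CO mice. Malat1 made up 8.53% of such counts in FO mouse 2 and 6.15% in CO mouse 5. What sets these libraries apart was not tested.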

How the results depend on the processing

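Depth limits these values: 3 counts stood for up to 19.9 CPM in the shallowest library, and the 7 genes had standard errors of 0.25 to 0.53 on the log2 scale. Of all genes tested, edgeR called 71, and the count was 36 with library size alone, 587 with any count, 15 with at least 10 counts in every mouse and 117 with limma-voom. The first 2 of these called 1 of the 7 genes, Cldn18 (log2 fold change -2.15 and -0.93), where library size alone moved the median of all genes to -0.55. Library size alone put Clic5 at -0.52. Limma-voom put Hopx at 0.31 and Cldn18 at 0.080, and called 0 of the further list. The filter on every mouse kept 4 of the 7.

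With each mouse left out in turn, 54 to 154 genes were called of 2075 to 3252 tested. Among them were 0 to 2 of the 7 and 0 to 2 of the further list. The fit that called 2 of the 7, without CO mouse 1, called 104 of 3202 genes. The fold changes lay between -0.49 and -0.02 for Ager, -0.33 and 0.58 for Hopx, -0.46 and 0.12 for Pdpn, -0.59 and -0.23 for Rtkn2, -0.0023 and 0.33 for Clic5, -1.40 and 0.14 for Cldn18, and -0.43 and -0.02 for Emp2, and the adjusted p of each of the 7 was at least 0.715. Without CO mouse 4, Hopx (0.58), Pdpn (0.12) and Cldn18 (0.14) were above 0. Without FO mouse 2, 154 genes were called, and Hopx was at 0.11 and Clic5 at -0.0023, and without FO mouse 3 Hopx was at 0.0047. Cldn18 passed the threshold without FO mouse 1, CO mouse 1, CO mouse 2 or CO mouse 3, and Rtkn2 without CO mouse 1. The cause was not tested.

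Deviations of same-numbered mice had a mean correlation of -0.12, and 0 of 10 mice correlated best with their own number, so the numbers were not taken to pair mice. With the replicate number as a block 55 genes were called, and Hopx was at 0.058, and no call of a gene among the 7 changed.

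Of the 21 correlations, 3 had an adjusted p under 0.05 with diet means subtracted and 21 with library size alone. Signs changed with library size alone for Hopx with Ager (0.69), Rtkn2 (0.71) and Clic5 (0.75) and for Pdpn with Rtkn2 (0.79) and Clic5 (0.79). They changed without FO mouse 2 and CO mouse 5 for the same pairs (0.49, 0.49, 0.79, 0.41 and 0.39), and without the farthest mice for Pdpn with Ager (-0.27), Cldn18 (-0.013) and Emp2 (-0.83).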
